A study of Mus musculus with 4 samples.

Results

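The genes examined here encode 10 histone lysine methyltransferases, the enzymes that write methyl marks on the lysines of histone H3: Kmt2a, Kmt2b, Kmt2c, Kmt2d, Setd1a and Setd1b on lysine 4, Setd2 on lysine 36, Ehmt1 and Ehmt2 on lysine 9, and Ezh2 on lysine 27. They were chosen by name, and each was found by its NCBI gene ID among the 17374 genes listed. RNA-seq had been carried out on germinal vesicle (GV) stage oocytes, which are arrested in meiotic prophase, from non-primed female mice on postnatal day 16. Of the 4 libraries, 2 came from non-irradiated control oocytes, and 2 from those given 5 Gy of γ-irradiation in vitro and, per the study's methods, collected a day later. The mice had a hybrid background of C57/Bl6 and DBA2J, both groups were held in milrinone to prevent meiotic resumption, cumulus cells and the zona pellucida were removed, and each library was made from pooled oocytes in 1 of 2 independent experiments. Polyadenylated RNA was selected, so that less of an RNA and a shorter poly(A) tail cannot be told apart, nor can less RNA per oocyte and fewer oocytes that express it.

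Histone methylation marks genes for use or silencing, and during oocyte growth it is laid down over much of the genome. Trimethylated lysine 4 marks promoters and, in growing oocytes, broad domains outside them, which depend on KMT2B. KMT2C and KMT2D place a single methyl group on lysine 4 at enhancers, and SETD1A and SETD1B act with the CpG-binding protein CXXC1. SETD2 trimethylates lysine 36 over transcribed genes, a mark that directs DNA methylation in the oocyte. EHMT1 (GLP) and EHMT2 (G9a) form a heterodimer that dimethylates lysine 9, and EZH2 is the catalytic subunit of Polycomb repressive complex 2 (PRC2), which trimethylates lysine 27.

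All 10 enzymes share the catalytic SET domain. To show how alike the paralogues are where they carry out the same step, 57 coding bases around the conserved asparagine-histidine motif of that domain are given for 8 members, read 5′ to 3′ from the longest GENCODE M21 coding transcript of each gene, with the 7 codons of the motif in capitals. The windows lie in coding exons on GRCm38, and for Kmt2c, Kmt2d, Setd1a, Setd1b, Setd2 and Ezh2 the coordinates span an intron.
Kmt2c, chr5:25275691-25275910, minus strand: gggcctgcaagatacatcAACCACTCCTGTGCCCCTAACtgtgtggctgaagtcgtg
Kmt2d, chr15:98834779-98834918, minus strand: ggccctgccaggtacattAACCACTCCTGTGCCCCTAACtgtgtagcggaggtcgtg
Setd1a, chr7:127799196-127799329, plus strand: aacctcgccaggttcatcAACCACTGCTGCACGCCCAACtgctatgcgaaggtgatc
Setd1b, chr5:123163676-123165856, plus strand: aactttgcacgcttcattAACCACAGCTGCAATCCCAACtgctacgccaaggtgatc
Setd2, chr9:110562961-110564573, plus strand: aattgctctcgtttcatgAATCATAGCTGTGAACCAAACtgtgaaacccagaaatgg
Ehmt1, chr2:24792361-24792417, minus strand: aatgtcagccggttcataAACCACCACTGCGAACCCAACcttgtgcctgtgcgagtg
Ehmt2, chr17:34912673-34912729, plus strand: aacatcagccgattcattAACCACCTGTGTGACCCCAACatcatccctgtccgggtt
Ezh2, chr6:47531821-47532036, minus strand: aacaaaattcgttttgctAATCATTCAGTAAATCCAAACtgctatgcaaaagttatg

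Kmt2c and Kmt2d held the same base at 50 of these 57 positions (87.7%), and their motif codons are identical as printed. Setd1a and Setd1b shared 46 (80.7%), and Ehmt1 and Ehmt2 shared 42 (73.7%). Kmt2a and Kmt2b, not printed, shared 49 (86.0%). The windows also differ in base composition: G and C make up 29.8% of the window of Ezh2, 40.4% of that of Setd2 and 59.6% of that of Kmt2d. Base composition of the whole transcript is taken up again beside the changes, since it moved with them.

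The libraries held between 33349466 and 37232818 estimated counts, summed here per gene. The 12 oocyte markers examined were all listed, with summed levels of 47238 to 52559 TPM (a level corrected for transcript length and depth). Of 10 granulosa and cumulus cell markers, 7 were listed, with summed levels of 16.8 to 22.5 TPM, and the defining markers Amh, Amhr2 and Foxl2 were not among them. Others of the list were present in every library, with Cyp19a1 at 8.79 to 10.2 TPM, Nr5a2 at 3.53 to 7.43 TPM and Fshr at 1.66 to 2.89 TPM. Cyp19a1 lay above every member other than Ezh2 in both control libraries and in irradiated library 1. In irradiated library 2 only Kmt2d, at 10.5 TPM, and Ezh2 were higher than Cyp19a1. Nr5a2 and Fshr lay within the range of the members other than Ezh2. The part of these markers in the results was not tested. Theca and stroma markers summed to at most 0.16 TPM, and neither of the blood cell markers Ptprc and Hba-a1 was listed. Irradiated library 2 stood apart from the other 3: its gene totals deviated from the mean of the 4 libraries by a median of 0.21 on the log2 scale, against 0.11 to 0.13 in the others. The members that rest on it are given with and without it.

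Ezh2 was the most abundant of the 10 genes, more than any other member in every library. Its levels were 71.4 and 76.9 TPM in control libraries 1 and 2, and 72.0 and 83.8 TPM in the irradiated libraries 1 and 2. That placed it above 91.9% of all genes listed. Averaged over the 4 libraries, Setd2 followed at 5.60 ± 0.60 TPM (SD, n = 4) and Ehmt1 at 5.09 ± 0.61 TPM. Kmt2d reached 4.31 ± 4.14 TPM, a spread nearly as large as its mean, and Kmt2c 3.22 ± 0.37 TPM. Kmt2b at 1.53 ± 0.45 TPM and Setd1a at 1.23 ± 0.32 TPM came next, then Setd1b at 0.61 ± 0.43 TPM and Ehmt2 at 0.60 ± 0.13 TPM. Kmt2a (chr9:44803355-44881352, GRCm38.p6) was at 1, 0, 2 and 3 estimated counts in control 1, control 2, irradiated 1 and irradiated 2, at or under the 3 counts taken as the floor of detection, and was not tested. For this gene 1 transcript was listed, while RefSeq holds 6 coding transcripts.

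In this order of levels, the 4 values of a gene lay above all 4 of the next gene for Ezh2 over Setd2, for Kmt2c over Kmt2b and for Ehmt2 over Kmt2a. The other neighbours overlapped. Kmt2d stood at rank 4 over all 4 libraries, at rank 3 without control library 2 and at rank 5, below Kmt2c, without irradiated library 2. Setd1b and Ehmt2 exchanged ranks without irradiated library 2. Between paralogues, Ehmt1 was 7.77 to 11.6 times as high as Ehmt2 in each library, per length. Ezh2 was 11.3 to 13.7 times as high as Ezh1, the alternative catalytic subunit of PRC2. The ratio of Kmt2d to Kmt2c was 0.69 and 0.61 in control libraries against 0.93 and 2.80 in irradiated libraries, so that Kmt2d exceeded Kmt2c only in irradiated library 2.

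**Figure D1:**
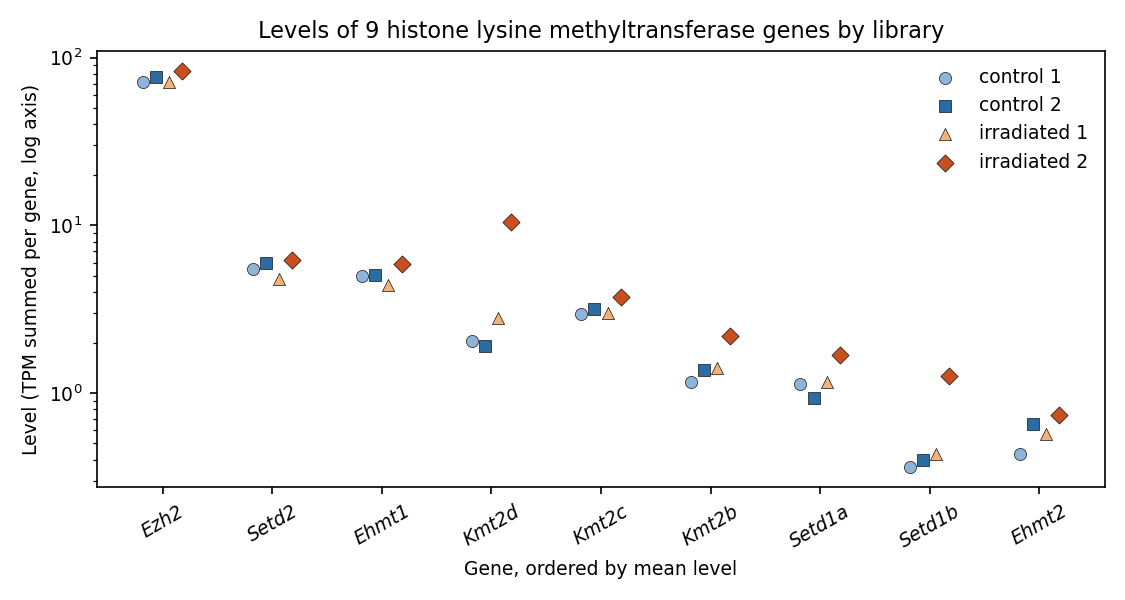
Level of each gene in TPM (log axis) in the 2 control and 2 irradiated libraries, 1 point per library, genes ordered by mean level. Ezh2 lies between 71.4 and 83.8 TPM in every library, Kmt2d and Setd1b are set apart in irradiated library 2, and Kmt2a, at 0 to 0.01 TPM, is not drawn.

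The comparison of control and irradiated oocytes asks which transcripts differ after γ-irradiation. It was made on the gene totals by the quasi-likelihood test of edgeR, p-values were adjusted over 12569 genes by the Benjamini-Hochberg method, and a gene was called where the adjusted p was under 0.05 and the log2 fold change exceeded 2 in either direction. Of the 9 members tested, 5 were higher and 4 lower in irradiated oocytes, and 0 were called. DESeq2 and the exact test of edgeR also called 0 of them. Over all genes, edgeR's quasi-likelihood test called 1 (0.00796%), DESeq2 4 (0.023%) and the exact test 10 (0.0796%). At an unadjusted p under 0.05 there was 1 member, Kmt2d, against 5.92% of all genes tested (4.63% higher and 1.29% lower). The median log2 fold change of the 9 members was 0.052, beside 0.010 over all genes, 51.4% of which were higher. These p-values rest on the spread between the 2 libraries of each condition, which edgeR moderates by the spread of all genes tested. The smallest adjusted p of a member was 0.71.

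In 7 of the 9 members the normalised counts of the 2 conditions did not overlap, which was also the case for 41.9% of all genes tested. The irradiated libraries lay above both controls for Kmt2b, Kmt2d and Setd1b (22.1% of all genes) and below both for Kmt2c, Setd2, Ehmt1 and Ezh2 (19.9% of all genes). Setd1a and Ehmt2 overlapped. When counts were scaled by library size alone, without TMM factors (edgeR's correction for composition), the median gene moved by 0.17 on the log2 scale. The groups then did not overlap in 3 members, and the share of all genes without TMM factors was not computed. On log2(TPM + 1), which carries no such factor, the median gene moved by 0.14, and Kmt2c (0.11), Ehmt1 (0.026) and Ezh2 (0.068) lay above 0 but below that shift. The directions below are therefore relative to the median gene.

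Among the enzymes of lysine 4, Kmt2d (chr15:98831669-98874077) had the largest difference of the 9 members. Its normalised counts were 1134 and 1005 in control libraries against 1484 and 4171 in irradiated libraries. Both irradiated libraries lay above both controls, and irradiated library 2 held 2.80 times as much Kmt2d as Kmt2c, against 0.93 in irradiated library 1. The mean over libraries was 1069 ± 91 (SD, n = 2) in control and 2827 ± 1900 in irradiated oocytes. The fitted difference was 2.65-fold, a log2 fold change of 1.40 with a standard error of 0.42 and a 95% interval of 0.40 to 2.41. It had an unadjusted p of 0.013 and an adjusted p of 0.71 in edgeR. The log2 fold change was 0.47 with irradiated library 2 left out, and 1.95 with irradiated library 1 left out. Both were within the limit of 2 on the log2 scale. The gap between the irradiated libraries, 1.49 on the log2 scale, was higher than that of 99.1% of all genes.

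Setd1b (chr5:123142040-123168630) was likewise highest in irradiated library 2, at a much lower level. Its normalised counts were 86.1 and 90.0 in control libraries against 97.8 and 219 in irradiated libraries. The controls lay close together, irradiated library 1 lay just above them, and irradiated library 2 far above. The log2 fold change was 0.86 with a standard error of 0.37, a 95% interval of −0.016 to 1.73, an unadjusted p of 0.053 and an edgeR adjusted p of 0.71. Leaving out irradiated library 2 gave 0.15, and leaving out irradiated library 1 gave 1.30. Its gap between the irradiated libraries, 1.15, was higher than that of 98.0% of all genes.

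Kmt2c (chr5:25271795-25498855), the paralogue of Kmt2d, had a difference on the other side of 0, and the difference between the paralogues was not tested. Its normalised counts were 1371 in both controls, against 1328 and 1250 in the irradiated libraries. The irradiated libraries lay slightly below the controls, and the log2 fold change was −0.089 with a 95% interval of −0.39 to 0.21 and an edgeR adjusted p of 0.83. Scaled by library size alone it was 0.067, a direction opposite to that with TMM factors and still below the shift of the median gene.

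Kmt2b (chr7:30568855-30589056) had normalised counts of 184 and 198 in control libraries against 211 and 243 in irradiated libraries. The irradiated libraries lay above the controls by less than the width of the interval, with a log2 fold change of 0.25, a 95% interval of −0.16 to 0.66 and an edgeR adjusted p of 0.72, and it was 0.14 with irradiated library 2 left out. Setd1a (chr7:127777389-127800122), the partner paralogue of Setd1b, had 182 and 142 in control libraries against 180 and 195 in irradiated libraries. Here the groups overlapped, and the log2 fold change was 0.21 with a 95% interval of −0.26 to 0.68. Summed over the 6 lysine 4 enzymes, levels were 7.64 and 7.79 TPM in control libraries against 8.81 and 19.4 TPM in irradiated libraries, and Kmt2d alone held 10.5 TPM of the last value.

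Setd2 (chr9:110532500-110618633), the lysine 36 trimethylase, was the member with the lowest fold change. Its normalised counts were 1260 and 1277 in control libraries against 1052 and 1023 in irradiated libraries. Both irradiated libraries lay below both controls and near each other. The fold was 0.82, a log2 fold change of −0.29 with a standard error of 0.12 and a 95% interval of −0.59 to 0.0062. In edgeR it had an unadjusted p of 0.054 and an adjusted p of 0.71. Unlike Kmt2d and Setd1b, it kept its size without irradiated library 2 (−0.27) and without irradiated library 1 (−0.32). Scaled by library size alone it was −0.13.

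The lysine 9 enzymes were far apart in level, and neither difference after irradiation passed the test. Ehmt1 (chr2:24790769-24919643) had normalised counts of 670 and 638 in control libraries against 572 and 573 in irradiated libraries. The irradiated libraries were nearly equal and lay below both controls, with a log2 fold change of −0.19, a 95% interval of −0.50 to 0.11 and an edgeR adjusted p of 0.71. Ehmt2 (chr17:34898463-34914073), at 44.1 and 61.8 in control libraries against 55.3 and 54.2 in irradiated libraries, had both irradiated values between its controls. Its log2 fold change was 0.052 with a 95% interval of −0.58 to 0.68, which at this depth leaves room for differences of either sign.

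Ezh2 (chr6:47530274-47595270) had normalised counts of 4868 and 4949 in control libraries against 4694 and 4145 in irradiated libraries. The irradiated libraries lay below the controls, irradiated library 1 by little. The log2 fold change was −0.15 with a 95% interval of −0.51 to 0.21 and an edgeR adjusted p of 0.76, and without irradiated library 2 it was −0.064. In TPM, which carries no TMM factor, Ezh2 was at 74.1 ± 3.9 (SD, n = 2) in control and 77.9 ± 8.3 in irradiated oocytes, so that its direction depended on the scale.

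**Figure D2:**
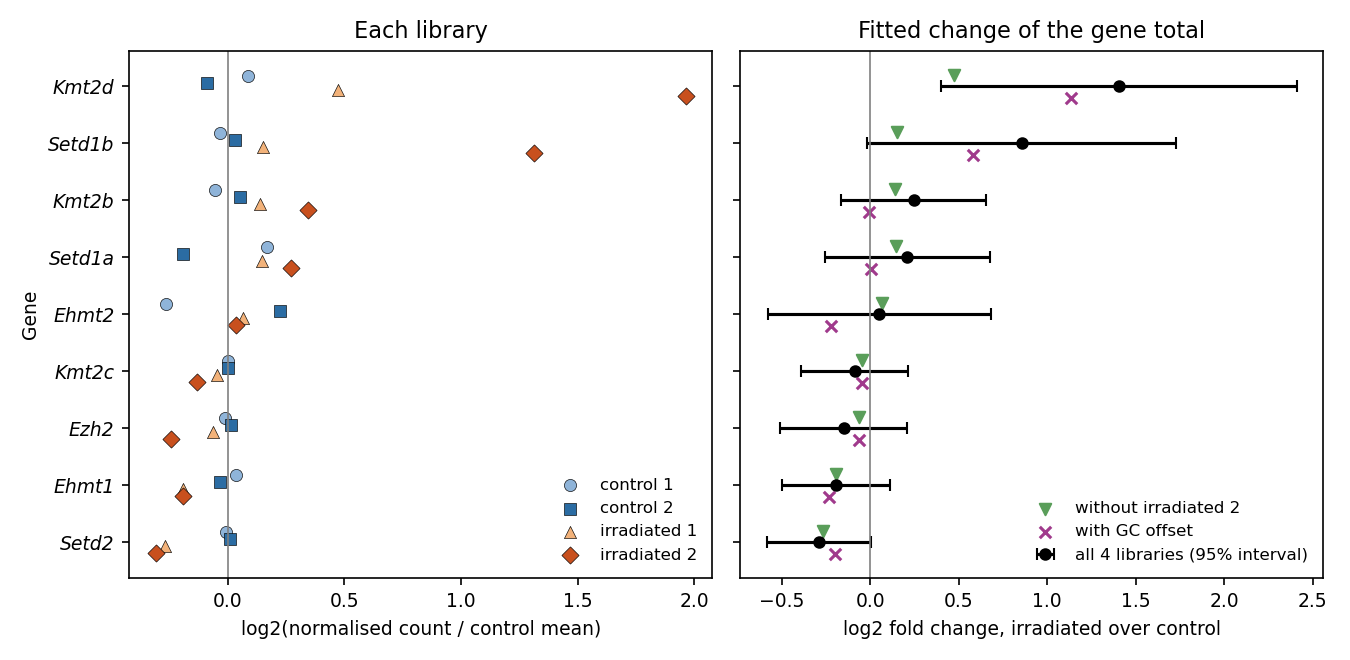
Left, log2 of each library's normalised count over the control mean for the 9 members tested, 1 point per library. Right, the fitted log2 fold change of irradiated over control with its 95% interval (black), the value without irradiated library 2 (triangles) and the value with an offset for GC content (crosses). Kmt2d and Setd1b stand at 1.40 and 0.86 with all libraries and at 0.47 and 0.15 without irradiated library 2, while Setd2 stays between −0.29 and −0.20.

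Base composition of the transcripts moved with these differences. The GC content of the longest coding transcript was 60.8% in Ehmt2, 59.1% in Kmt2b, 59.0% in Setd1b, 58.4% in Kmt2d and 57.0% in Setd1a, which put the first 4 in the highest decile (10 classes of equal size) of all genes tested and Setd1a in the ninth. It was 51.2% in Ehmt1, 47.6% in Kmt2c, 44.4% in Ezh2 and 44.3% in Setd2, against a median of 49.4% over all genes. The 5 members of the upper 2 deciles were the 5 with a fold change above 0, and the other 4 were those below 0. The same order held over all genes: the median log2 fold change was −0.13 in the lowest decile of GC content and 0.28 in the highest. In the highest decile, irradiated library 2 deviated by a median of 0.23 from the mean of the 4 libraries and control library 1 by −0.15.

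Kmt2d and Setd1b had wide gaps between the irradiated libraries for genes of their GC content. In their decile of 1222 genes, the gap between the irradiated libraries had a median of 0.18 and a 5th to 95th percentile range of −0.62 to 1.12, and the gaps of Kmt2d (1.49) and Setd1b (1.15) lay above that range, Setd1b barely, as about 5% of the decile does. Kmt2b (0.20) and Ehmt2 (−0.027), of the same decile, lay near its centre. An edgeR fit with an offset for GC content, chosen after the values were seen, brought the median of the highest decile to 0.017. In it the log2 fold change of Kmt2d was 1.13 (unadjusted p of 0.025, adjusted p of 0.85), and that of Setd1b was 0.58 (unadjusted p of 0.12). Setd2 was at −0.20, Ehmt1 at −0.24, Ezh2 at −0.065 and Kmt2c at −0.048, while Kmt2b was at −0.0070, Setd1a at 0.0045 and Ehmt2 at −0.22, so that Kmt2b and Ehmt2 turned direction. With the offset, 1 member had an unadjusted p under 0.05, beside 3.59% of all genes.

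**Figure D3:**
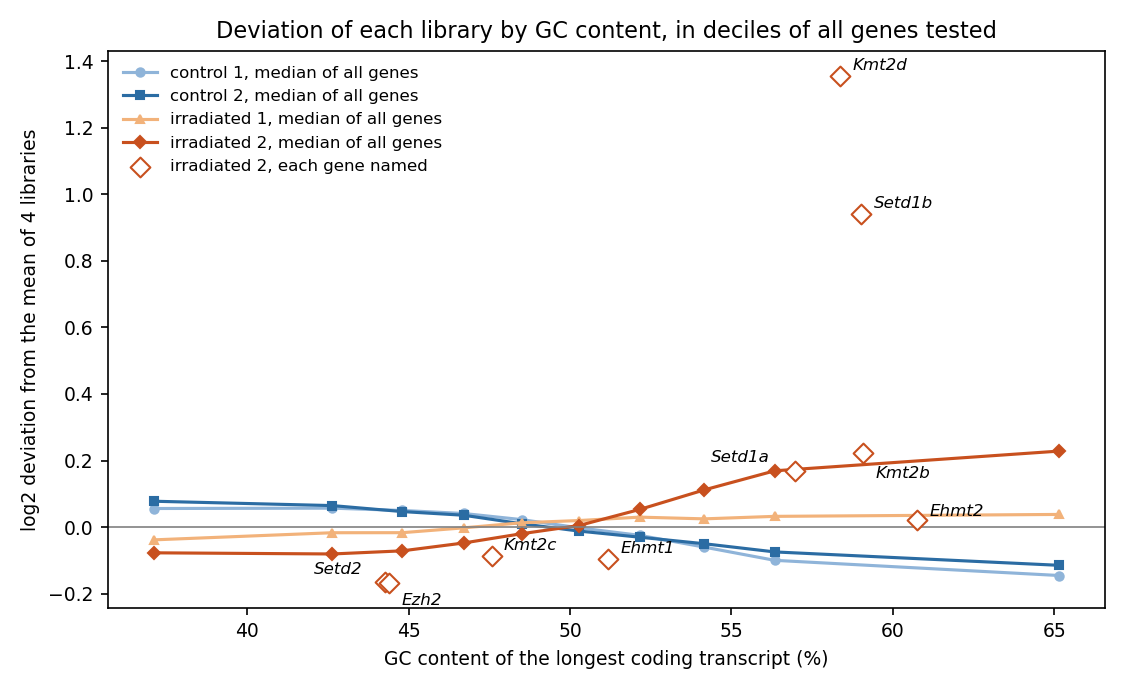
Median log2 deviation of all genes from the mean of the 4 libraries, in deciles of GC content, for each library (lines), with the deviation of each of the 9 members in irradiated library 2 (open diamonds). The line of irradiated library 2 climbs to 0.23 in the highest decile while both control lines descend, and Kmt2d at 1.36 and Setd1b at 0.94 lie far above it.

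The deposited table divides each gene among RefSeq transcripts, and 87 transcripts of the 10 genes were listed, while RefSeq holds 125 coding transcripts for them. Only 30 had more than 3 estimated counts in every library, and 22 had them in a single library. Setd1a, Ehmt2 and Kmt2a were each listed with 1 transcript. Ehmt1 was divided over 33 and Kmt2c over 25, and the leading transcript held 9.87% and 21.1% of their reads. How reads were shared among such overlapping models is an estimate, so that a transcript that appears or vanishes is uncertain where its gene total did not move.

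For Kmt2d, the transcript NM_001033276.3 held 86.4% of the reads. Its estimated counts were 992 and 788 in control libraries against 1220 and 4148 in irradiated libraries, the order of the gene total. It took between 85.0% and 89.7% of the gene in each library, so that the difference was that of the main transcript. For Ezh2, NM_007971.2 held 54.0% of the reads, with 2768 and 2315 in control libraries against 2279 and 2648 in irradiated libraries. These values overlapped, and the log2 fold change was −0.17 with a 95% interval of −0.50 to 0.16.

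Of the 87 transcripts, 58 were tested, 26 higher and 32 lower, and edgeR called 0 of them, as it called 0% of 26645 transcripts in all. At an unadjusted p under 0.05 there were 4 (4.9% of all transcripts). DESeq2 (0.862% of all transcripts called) and the exact test of edgeR (1.12%) each called the same 2, NM_001040398.2 of Setd1b and XM_030252217.1 of Ehmt1.

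The Setd1b gene had 2 listed transcripts. NM_001040398.2 was at 0 in both control libraries and at 77.6 estimated counts in each of the irradiated libraries. It was at least 24.0-fold higher in irradiated oocytes, taken against 3 counts per control library, with an unadjusted p of 0.0027 and an adjusted p of 0.78 in edgeR, 0.0016 in DESeq2 and 0.00072 in edgeR's exact test. The other transcript, XM_006530238.4, was at 84 and 83 in control, against 14.4 and 176 in the irradiated libraries. In irradiated library 1 the gene total was therefore near that of the controls while 84.3% of it was given to NM_001040398.2, and in irradiated library 2 that share was 30.5%. As a test of isoform usage, diffSpliceDGE of edgeR gave Setd1b an unadjusted p of 0.025 and an adjusted p of 0.53.

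XM_030252217.1 of Ehmt1 had the opposite course, at 43.9 and 45.3 estimated counts in control, and 0 in irradiated libraries 1 and 2. It was at least 16.1-fold lower, taken against 3 counts per irradiated library, with an adjusted p of 0.78 in edgeR, 0.024 in DESeq2 and 0.012 in the exact test. It made up 6.71% and 7.70% of the gene in the control libraries. XM_006498425.2 of the same gene, named after its values were seen, was at 0 in both control libraries and at 15.5 and 17.5 in the irradiated libraries. The usage test gave Ehmt1 an adjusted p of 1.00.

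NM_001081340.2, the main transcript of Setd2 with 86.9% of the reads, was the last of the 4 with an unadjusted p under 0.05. It was at 1172 and 1028 estimated counts in control libraries against 775 and 1007 in irradiated libraries. Both irradiated values were below both controls, with a log2 fold change of −0.44, a 95% interval of −0.76 to −0.11, an unadjusted p of 0.022 and an edgeR adjusted p of 0.78. In the isoform usage test 0 members passed an adjusted p of 0.05, beside 0.253% of 6323 genes, and 1 had an unadjusted p under 0.05 (6.12% of all genes). Among the remaining members, the transcript with the smallest p was XM_017320825.2 for Kmt2c, with 88.9 and 65.1 in control libraries against 122 and 175 in irradiated libraries (log2 fold change of 0.81, unadjusted p of 0.054 in edgeR). For Ezh2 it was XM_030255154.1, with 33.3 and 36.5 against 15.3 and 16.6 (log2 fold change of −1.25, unadjusted p of 0.095 in edgeR). For Kmt2b it was XM_011250733.2, which held 92.7% of the reads and had a log2 fold change of 0.28.

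**Figure D4:**
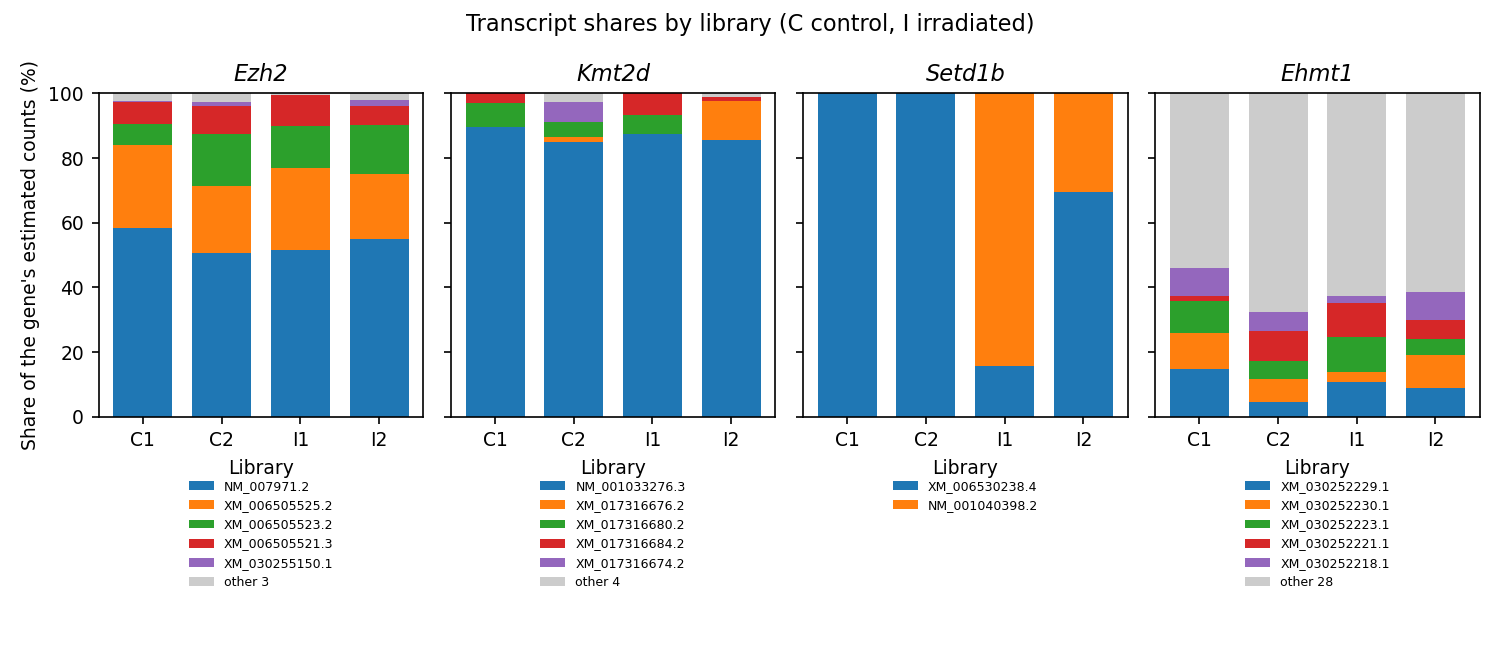
Share of each gene's estimated counts given to each of its leading transcripts (at most 5 drawn, the others in grey) in control (C1, C2) and irradiated (I1, I2) libraries. NM_007971.2 of Ezh2 and NM_001033276.3 of Kmt2d lead in every library, NM_001040398.2 of Setd1b appears only in the irradiated libraries, with 84.3% and 30.5%, and Ehmt1 is divided over many transcripts.

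The enzymes act in complexes and beside other methyltransferases, and 49 such genes were described from lists by mark and complex. Of these 48 were listed and 46 tested, with 24 higher, 22 lower and 0 called by edgeR. Those with an unadjusted p under 0.05 were 3 (6.52%, beside 5.92% of all genes), and all 3 were higher in irradiated oocytes. The median log2 fold change was 0.062.

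Nsd3, which methylates lysine 36, was at 336 and 332 estimated counts in control libraries against 377 and 809 in irradiated libraries, with a log2 fold change of 0.64 (unadjusted p of 0.039, edgeR adjusted p of 0.71). Phf1, an accessory subunit that recruits PRC2, was at 159 and 189 against 197 and 660, with 1.09 (unadjusted p of 0.038, edgeR adjusted p of 0.71). Both were highest in irradiated library 2, as Kmt2d was, and without irradiated library 2 they were at 0.19 each. Dot1l, the lysine 79 methyltransferase, was at 101 and 103 against 149 and 179, with 0.54 (unadjusted p of 0.023, edgeR adjusted p of 0.71), and without irradiated library 2 it was at 0.56. Phf1 and Dot1l are GC-rich (60.0% and 57.5%), and with the GC offset their log2 fold changes were 0.79 and 0.33. Nsd3, with a GC content of 46.9%, was at 0.70 with the offset.

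The partners of Ezh2 ranged widely in level. The 4 core PRC2 subunits other than the catalytic ones summed to between 2110 and 2295 TPM. Most of it was Rbbp7, a histone-binding protein shared with other complexes, while Rbbp4 was at 2.44 to 5.57 TPM. Of the accessory subunits, only Ezhip exceeded 15.5 TPM, the highest value of Mtf2. Eed, which binds the lysine 27 mark, was at 80.5 to 127 TPM, and Suz12, the scaffold, at 8.47 to 10.3 TPM, with log2 fold changes near 0 and of −0.25 (−0.14 and −0.17 with irradiated library 2 left out). Ezhip, an inhibitor of PRC2, was at 146 and 191 TPM in control libraries against 222 and 215 TPM in irradiated libraries, with a log2 fold change of 0.19 and an edgeR adjusted p of 0.79. Its normalised counts, 7243 and 8991 in control and 10626 and 7925 in irradiated libraries, overlapped. The log2 fold change was 0.39 with irradiated library 2 left out and −0.019 with the GC offset described above.

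Among the subunits shared by the lysine 4 enzymes, Dpy30 was at 636 to 713 TPM, far above any of the 6 enzymes, with a log2 fold change of −0.18. Wdr5 (0.24) and Rbbp5 (−0.26) were the highest and lowest of the 4, but without irradiated library 2 Rbbp5 turned to 0.076, while Wdr5 was at 0.33 and Dpy30 at −0.053. Neither the 4 subunits particular to KMT2C and KMT2D complexes, at −0.23 (Kdm6a, a lysine 27 demethylase) to 0.15 (Pagr1a), nor the 3 of SETD1 complexes, at −0.35 (Bod1l) to 0.23 (Cxxc1), held a gene with an unadjusted p under 0.05 in edgeR. Without irradiated library 2, Pagr1a turned to −0.016 and Bod1l was at −0.081, while Kdm6a (−0.19) and Cxxc1 (0.36) had the same direction as with it. The 4 subunits of KMT2A and KMT2B complexes were at −0.39 (Psip1, the lowest of the 46 genes tested) to 0.16 (Men1). Without irradiated library 2, Psip1 was at −0.12 and Men1 at 0.19. Of the 4 other lysine 9 methyltransferases, Suv39h1 was at 0.064 and Suv39h2, Setdb1 and Setdb2 were at −0.14 to −0.35. Without irradiated library 2, Suv39h2 was at −0.0042 and Setdb1 at −0.077, while Setdb2 was at −0.38. Of the partners of EHMT1 and EHMT2, Wiz was highest at 0.56 (unadjusted p of 0.095 in edgeR), and at 0.15 without irradiated library 2.

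**Figure D5:**
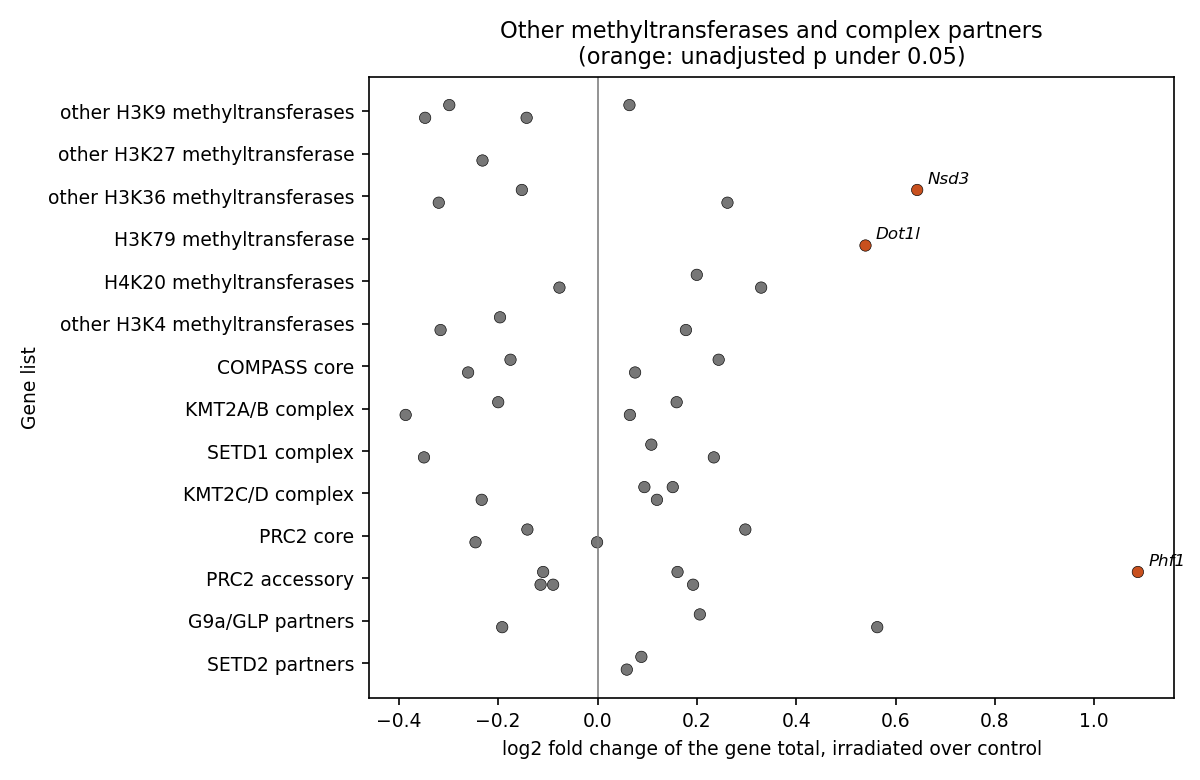
Log2 fold change of the gene total, irradiated over control, for the 46 tested genes of the lists, 1 point per gene, grouped by mark or complex. The 3 genes with an unadjusted p under 0.05 (orange) are Nsd3 at 0.64, Dot1l at 0.54 and Phf1 at 1.09, and the others lie between −0.39 and 0.56.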

How the data were processed

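Sequenced reads of 4 libraries (2 control, 2 irradiated) had been aligned by the authors to GRCm38 (mm10) with Bowtie2. The submitters' processing notes also name HISAT2 and RSEM without giving their roles. For each RefSeq transcript the authors deposited an estimated count, not scaled for library size, and TPM and FPKM values, which are corrected for transcript length and depth. The 6 columns of the authors' means were not used. Depth was 33349466 to 37232818 estimated counts per library. The floor of 3 counts covers counting error only. The standard errors and 95% intervals were derived from edgeR's log2 fold change and test statistic, and include the spread between libraries.

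Counts were summed per gene, rounded, filtered by filterByExpr (minimum count 10), scaled by TMM factors (0.923, 0.975, 0.937 and 1.19) and compared between groups by glmQLFit and glmQLFTest of edgeR 4.0.16 (R 4.3.3), with Benjamini-Hochberg adjustment over all 12569 genes or 26645 transcripts. Features past a log2 fold change of 2 in either direction, at an adjusted p below 0.05, were called. Isoform usage was tested with diffSpliceDGE and Simes' method. Normalised counts are counts per TMM-scaled library at the mean library size. Alternatives were DESeq2 1.42.0, its size factors, library size alone, no filter, a replicate block, limma 3.58.1 on log2(TPM + 1) and log2(TPM + 0.1), edgeR's exact test, leaving out each library, and an added offset for GC content (lowess, span of 0.3). Level order was also computed from FPKM.

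GC content and sequences are from GENCODE M21 on GRCm38, and coordinates and symbols are from RefSeq on GRCm38.p6 (17323 of 17374 gene IDs matched). GC content was known for 97.3% of genes tested. Same-numbered libraries deviated together with a correlation of 0.078, which does not show that the numbers pair them. The fits were tested on simulated data with 200 changed features. Plots were made in Python 3.11.15 by matplotlib 3.10.9.

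The members and gene lists were chosen with earlier results of these data known. All members were named, each with its most abundant transcript and that of smallest p, and per list up to 2 of the highest and 2 of the lowest genes. No gene was named from the lists of lysine 20 methyltransferases of histone H4, other lysine 4 methyltransferases and partners of SETD2.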

Additional observations from a re-analysis of the deposited data

How the results depend on the processing

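Under every alternative run, 0 members were called from gene totals and 0 changed isoform usage, and the direction of Kmt2d, Setd1a, Setd1b and Setd2 did not turn. In some fits with a library left out, it was the limit on the fold change that held the count of calls at 0. Such a fit leaves 1 library in a group, so that its p-values are not given. The log2 fold change of Kmt2d ranged from 0.47 to 1.95 and that of Setd1b from 0.15 to 1.30, both limits set by leaving out an irradiated library, and that of Setd2 from −0.32 to −0.054. The lone library of a condition was then taken to vary like the other condition. Members at an unadjusted p under 0.05 numbered 1 as reported, beside 5.92% of all genes. They numbered 2 with DESeq2, its size factors, no filter, the exact test or the replicate block, and 0 with limma on log2(TPM + 1). For the other methyltransferases and partners the count was 3, and it was 6 with the replicate block, 1 and 0 with limma on log2(TPM + 1) and log2(TPM + 0.1), and 1 to 23 with a library left out, the 23 without irradiated library 1. For fits with a library left out, the share of all genes or transcripts under that p was not computed. Their counts can therefore not be read as an excess over the other genes or transcripts. Member transcripts called were 0, and 2 with DESeq2 or the exact test. Those at an unadjusted p under 0.05 were 4, and 7 with DESeq2 or limma on log2(TPM + 1), and 7 to 12 with a library left out. The median log2 fold change of the members was 0.052, and 0.25 with limma on log2(TPM + 0.1), where the median of all genes was itself 0.21. Groups not overlapping were 7, beside 41.9% of all genes, and 3 with library size alone, where the share of all genes was not computed. The cause of these shifts was not tested.

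With the replicate block, Kmt2d had a log2 fold change of 1.22 (unadjusted p of 0.0011, edgeR adjusted p of 0.21) and Setd1b of 0.76 (unadjusted p of 0.013, edgeR adjusted p of 0.38). The block changed no call, and the shared numbers are not shown to pair the libraries.

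Small differences turned direction, and the cause was not tested. With library size alone, Kmt2c was at 0.067 and its NM_001081383.2 at 0.10, and XM_006530238.4 of Setd1b at 0.21. With limma on log2(TPM + 1) and log2(TPM + 0.1), Kmt2c was at 0.11 and 0.13, Ehmt1 at 0.026 and 0.029, Ezh2 at 0.068 in both, NM_001081383.2 at 0.070 and 0.14, and NM_007971.2 of Ezh2 at 0.040 and 0.041. XM_006530238.4 was at 0.040 with the former. XM_030252229.1 of Ehmt1 was at 0.045 and 0.20 with limma and at 0.074 with the replicate block. With the GC offset, chosen after seeing the data, Kmt2b was at −0.0070 and Ehmt2 at −0.22. With a library left out, Ehmt2 ranged from −0.18 (without control 1) to 0.31 and its NM_147151.3 from −0.16 to 0.33. NM_001081383.2 ranged from −0.24 to 0.091, through 0.00054 without control 2, XM_006530238.4 from −2.55 to 0.80 (without irradiated 1), and XM_030252229.1 from −0.79 to 0.96 (without control 1). Below about 3 counts per library the depth cannot show a difference, which leaves Kmt2a undescribed.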

Other observations

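The members differ at the third base of their codons, where the protein sequence constrains the base least. Over the whole coding sequence, G or C stood there in 37.3% of the codons of Setd2, 39.8% of those of Kmt2c and 42.0% of those of Ezh2, against 59.9% in Kmt2d, 69.5% in Setd1b and 71.8% in Ehmt2. Kmt2c and Kmt2d, which had the same base at 87.7% of the SET domain window, were far apart in this share, at 39.8% and 59.9%. The base identity of their whole coding sequences was not computed. Across paralogues, the member with more G or C at the third base had the higher log2 fold change in 3 pairs. These were Kmt2c and Kmt2d (−0.089 and 1.40), Setd1a and Setd1b (0.21 and 0.86), and Ehmt1 and Ehmt2 (−0.19 and 0.052). The order did not hold throughout: without control library 1, Ehmt1 was at −0.16 and Ehmt2 at −0.18, and without irradiated library 2, Setd1a and Setd1b were level at 0.15. Nor did it hold across the members: Ehmt1, at 57.6%, was at −0.19, while Kmt2b (56.6%) and Setd1a (54.7%) were at 0.25 and 0.21. Ehmt2, with the highest share of G or C at the third base, was at 0.052. The order within the 3 pairs is a description in the same 4 libraries, and the part of base composition in these differences was not tested.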
